A study of Mus musculus with 16 samples.

Results

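Unirradiated dorsal skin of mice labelled as knockout for the TNF receptor genes Tnfrsf1a and Tnfrsf1b was compared with unirradiated wild-type dorsal skin. The comparison takes the 8 libraries titled as controls, 4 of each genotype, out of 16 libraries in the series, and the other 8 libraries, taken after UVB, serve here as a second reading of the same genotype difference. Per the labels, all mice were males aged 8 weeks and all skin was in telogen, when hair follicles rest. The WT control group is wild type with no UVB, and the KO control group carries the Tnfrsf1a/b knockout with no UVB. The WT UVB and KO UVB groups are the same genotypes after a treatment that the labels give as 3xUVB. The sources used here do not give the kind of knockout allele, the strain background of each genotype or the UVB dose. Whether each library is a separate animal is not stated in the labels. Unless a fit of 2 groups is named, a p-value here rests on the spread of samples within groups, estimated over all 4 groups. The UVB libraries thus enter it, and part of that spread may be technical.

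TNF is a cytokine that signals through a pair of receptors. TNF receptor 1, encoded by Tnfrsf1a, is found on nearly all cells and can start NF-kB signalling or cell death, whereas TNF receptor 2, encoded by Tnfrsf1b, is found mainly on immune and endothelial cells. Skin also cycles its hair follicles through growth (anagen), regression (catagen) and rest (telogen), and the genes of the hair shaft and its root sheath are transcribed in growing follicles. The comparison gives the difference between the genotypes that is present before any UVB.

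The 8 unirradiated libraries held 15644375 to 22651416 reads in genes, of which 6.59 to 10.7% fell in the 10 most abundant genes and 1.84 to 2.52% in mitochondrially encoded genes. Keratinocyte and dermal markers were high in all 8 libraries, with Krt14 at 961 to 1870 and Col1a1 at 8240 to 20300 CPM (reads scaled to library size), and neither was called different between the genotypes. Between the 12 pairs of libraries of the same group, the chi-square of the counts per degree of freedom was 13.9 to 58.4, above sampling noise. In a principal component analysis of log2 CPM, the first component held 39.4% of the variance, and WT libraries lay on it at -36.4 to -21.1 and KO libraries at 19.3 to 41.3. KO control 1 stood apart on the second component, at -43.3 against 12.8 to 16.3 for the other KO libraries. Its score over the skeletal muscle genes, the mean of their standardised log2 CPM, was 1.84 against -0.217 to 0.859 in the other unirradiated libraries.

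Both targeted genes were lower in KO skin, and transcripts of both were still counted. Tnfrsf1a (ENSMUSG00000030341.18, chromosome 6) was at 146, 148, 133 and 145 CPM in the 4 WT libraries and at 82.2, 93.9, 84.6 and 82.9 CPM in the 4 KO libraries. Tnfrsf1b (ENSMUSG00000028599.11, chromosome 4) was at 69.1, 69.6, 48.3 and 44.4 CPM in WT and at 23.7, 24.9, 18.1 and 16.4 CPM in KO libraries. For each gene the groups did not overlap. The fall was 0.74 ± 0.07 on the log2 scale (fold change ± standard error, adjusted p = 5.43e-05) for Tnfrsf1a and 1.47 ± 0.21 (adjusted p = 0.00206) for Tnfrsf1b, both by edgeR's quasi-likelihood test with Benjamini-Hochberg adjustment over all genes tested. KO libraries still held 1495 to 2215 reads on Tnfrsf1a and 296 to 588 on Tnfrsf1b. Counts per gene do not show which part of a gene was read, so they do not check which part the knockout removed.

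**Figure D1:**
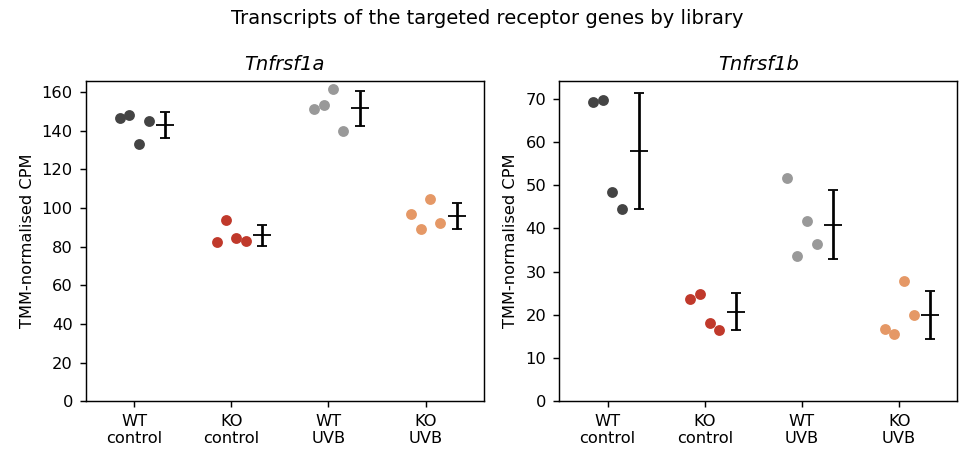
TMM-normalised CPM (vertical axis, starting at 0) of Tnfrsf1a and Tnfrsf1b in each library of the 4 groups, with the group mean ± SD (n = 4) beside the points. KO libraries lie below WT libraries without UVB and with UVB, and no KO library is at 0.

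Of 17531 genes tested, 297 passed an adjusted p under 0.05 without UVB (1.69%), and these are referred to as called. More genes were lower in KO than higher, 224 (1.28%) against 73 (0.416%), and the lower genes differed by more. Of the called genes, 181 were lower and 37 higher by more than 2-fold, and the median absolute log2 fold change was 2.76 among lower and 1.04 among higher genes. CPM of the 2 groups did not overlap for 292 of the called genes, against 7.68% of all genes tested. Removal of any 1 unirradiated library, which leaves fewer in its group, lowered the count of calls. It became 166, 161, 288 and 214 without WT control 1, 2, 3 and 4. Without KO control 1, 2, 3 and 4 it became 211, 203, 196 and 163. DESeq2 called 452 genes, 168 higher and 284 lower, and limma voom 589, 216 higher and 373 lower.

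Among the ligands and receptors of the TNF family only the knocked-out genes themselves were called, 2 of the 42 measured members (4.76%, both lower), and DESeq2 and voom also called 2. Tnf was at 2.46, 1.92, 1.79 and 1.88 CPM in WT and at 0.826, 1.65, 1.33 and 1.497 CPM in KO libraries, a difference of -0.60 ± 0.46 (adjusted p = 0.741). Its levels did not overlap, on 31 to 55 reads in WT and 17 to 39 reads in KO libraries. Ltb, a lymphotoxin subunit, differed by -0.77 ± 0.32 (adjusted p = 0.367) and Lta by -0.40 ± 0.42 (adjusted p = 0.837).

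Of the 36 components that carry the signal inside the cell, edgeR, DESeq2 and voom called 0, and 2 had an unadjusted p under 0.05. Traf2, an adaptor of both receptors, was at 25.6 to 33.3 CPM in WT and 24.4 to 28.7 CPM in KO libraries (-0.11 ± 0.10, adjusted p = 0.795). In the list of NF-kB subunits and target genes, 1 of 33 members was called (3.03%). This was Vcam1, the endothelial adhesion molecule that binds leukocytes, at 40.0, 34.7, 21.6 and 36.0 CPM in WT and 19, 15.8, 9.21 and 8.82 CPM in KO libraries. Its log2 fold change was -1.32 ± 0.32 (adjusted p = 0.0472). That call was lost in 10 alternatives, among them without WT control 1, 2 or 4 or KO control 2, 3 or 4 (adjusted p of 0.0738 to 0.147). Classical feedback targets did not pass the test. Tnfaip3, which encodes the NF-kB inhibitor A20, differed by 0.07 ± 0.23 (adjusted p = 0.962), Nfkbia by 0.53 ± 0.15 (adjusted p = 0.0959), and the cytokine Il1b by 0.63 ± 0.85 (adjusted p = 0.883). Il6 was below 0.35 CPM in every unirradiated library.

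The hair follicle genes made up the largest named group, and all that were called were lower in KO skin. In 3 lists of the growing follicle, 28 of 47 measured members were called (59.6%), 28 lower and 0 higher. The median log2 fold change of the 47 was -2.76, against 0.002 over all genes tested. DESeq2 called 25 of the 47, 20 of them among the 28, and voom called 34, 27 of them among the 28. Summed over the 3 lists, transcripts were at 1781 to 4017 CPM in WT and at 474 to 696 CPM in KO libraries. The labels place all of this skin in telogen, although these are lists of the growing follicle. Whether the genotypes were at the same stage of the hair cycle was not tested. In whole skin, fewer follicle cells of a type and less RNA per cell cannot be told apart.

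The keratins of the hair shaft, which form its filaments, were called lower in 13 of 15 measured members (86.7%, against 1.28% of all genes tested). All 15 had a negative log2 fold change. All 15 also had no overlap between the groups, against 7.68% of all genes tested. Krt83 was at 42.9, 56.4, 19.5 and 23.5 CPM in WT and at 2.38, 4.28, 6.496 and 2.83 CPM in KO libraries (-3.15 ± 0.48, adjusted p = 0.00287). Krt31 was at 28.2, 35.8, 10.8 and 16.98 CPM in WT and at 2.19, 2.71, 4.21 and 1.22 CPM in KO libraries (-3.14 ± 0.57, adjusted p = 0.00904). In both, WT control 1 and 2 were the highest libraries, and the highest KO library, KO control 3, stayed below the lowest WT library. Krt35 (-3.08 ± 0.52, adjusted p = 0.00608), Krt33a (-3.13 ± 0.56, adjusted p = 0.00862) and Krt39 (-2.59 ± 0.40, adjusted p = 0.00299) were also lower, without overlap between the groups. Several of these keratins have near-identical neighbours (Krt33a and Krt33b, or Krt81, Krt83, Krt86 and Krt87). How reads that fit more than 1 of them were handled is not given. Krt85 is not analysed here.

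The promoters of 4 called hair shaft keratins are shown because these genes fell together and lie in keratin clusters. They were taken from RefSeq for GRCm38.p6, 250 bases before to 50 bases after the start, and are the 4 with the smallest adjusted p among the 7 of 13 called hair shaft keratins that matched an entry. Capitals mark CTTTGA, the core that LEF1 and TCF factors recognise, and TATAAA, the TATA box, searched on both strands. All are from chromosome 11, minus strand, and are printed 5′ to 3′ in the direction of transcription.
Krt31, chr11:100050502-100050801: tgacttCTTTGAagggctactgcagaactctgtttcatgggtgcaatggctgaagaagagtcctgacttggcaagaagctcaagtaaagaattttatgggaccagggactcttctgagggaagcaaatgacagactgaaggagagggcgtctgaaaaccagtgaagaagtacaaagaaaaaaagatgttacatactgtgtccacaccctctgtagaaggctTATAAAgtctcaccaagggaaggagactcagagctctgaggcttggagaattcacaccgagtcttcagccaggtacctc
Krt34, chr11:100041505-100041804: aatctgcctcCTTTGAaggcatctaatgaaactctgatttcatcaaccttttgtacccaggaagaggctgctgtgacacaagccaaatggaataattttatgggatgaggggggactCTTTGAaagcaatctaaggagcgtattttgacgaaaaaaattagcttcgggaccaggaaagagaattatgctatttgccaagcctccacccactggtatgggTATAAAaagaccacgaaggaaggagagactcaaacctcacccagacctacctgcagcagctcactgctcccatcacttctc
Krt39, chr11:99521289-99521588: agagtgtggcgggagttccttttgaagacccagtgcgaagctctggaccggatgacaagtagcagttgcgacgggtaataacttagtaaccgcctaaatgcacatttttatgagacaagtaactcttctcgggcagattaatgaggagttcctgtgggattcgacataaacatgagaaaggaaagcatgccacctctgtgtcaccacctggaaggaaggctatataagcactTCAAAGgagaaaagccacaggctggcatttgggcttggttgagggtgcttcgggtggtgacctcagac
Krt40, chr11:99543171-99543470: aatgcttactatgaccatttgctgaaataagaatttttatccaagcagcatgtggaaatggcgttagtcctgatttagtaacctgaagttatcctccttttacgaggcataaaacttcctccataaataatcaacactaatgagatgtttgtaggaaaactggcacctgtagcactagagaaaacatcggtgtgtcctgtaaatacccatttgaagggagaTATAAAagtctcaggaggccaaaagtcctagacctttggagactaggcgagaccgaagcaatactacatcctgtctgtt
In Krt31 TATAAA begins at base 222 of the 300, in Krt40 at base 222 and in Krt34 at base 220, while Krt39 holds no exact match. Krt39 reads tatataag shortly before its capitals, a variant that the search did not count. CTTTGA occurs at 1 place in Krt31, 2 in Krt34, 1 in Krt39 and 0 in Krt40. Among the 7 matched keratins, 5 (71.4%) hold CTTTGA and 5 (71.4%) hold TATAAA. Of all 32851 promoters of the same length, 16% and 13.6% do. The match is of letters only, and the 7 are related genes of 1 family. Whether the match bears on the genotype difference was not tested. Lef1 itself, which encodes the factor, was at 5.99, 5.83, 4.11 and 5.6 CPM in WT and at 1.65, 3.81, 2.72 and 3.11 CPM in KO libraries, without overlap, and did not pass the test (-0.93 ± 0.25, adjusted p = 0.0952).

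The inner root sheath is the layer that moulds the growing shaft. Of its 14 measured genes, 7 were called lower (50%, against 1.28% of all genes tested). In 11 the groups did not overlap, against 7.68% of all genes tested. Krt28 was at 40.5, 54.2, 18.0 and 20.3 CPM in WT and at 5.25, 5.17, 6.39 and 1.89 CPM in KO libraries (-2.82 ± 0.43, adjusted p = 0.00287). Padi3, which citrullinates trichohyalin, was at 32.8, 37.6, 13.6 and 19.3 CPM in WT and at 3.35, 3.94, 4.69 and 1.11 CPM in KO libraries (-2.97 ± 0.48, adjusted p = 0.00429). Trichohyalin itself, Tchh, went from 534 to 1393 CPM in WT to 38.6 to 160 CPM in KO libraries (-3.12 ± 0.67, adjusted p = 0.0251), a call that ended without WT control 1 or 2 or any 1 KO library (adjusted p of up to 0.0818). The trichohyalin-like Tchhl1 differed by -3.10 ± 0.52 (adjusted p = 0.00521).

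The most abundant root sheath keratins had log2 fold changes near -3 and were not called by edgeR over the 4 groups. Krt71 was at 657, 741, 281 and 376 CPM in WT and at 67.7, 60.1, 63.8 and 13.5 CPM in KO libraries, without overlap (-3.32 ± 0.98, adjusted p = 0.142). Krt25 differed by -3.21 ± 0.82 (adjusted p = 0.0695) and Krt27 by -3.29 ± 0.82 (adjusted p = 0.0606), again without overlap. All 3 were called by edgeR in a fit of the 2 unirradiated groups alone and by limma voom, where the adjusted p was 0.00406 for Krt71, 0.00208 for Krt25 and 0.000847 for Krt27. Over the 14 inner root sheath genes, edgeR called 7, DESeq2 6 and voom 11. Gata3, a sheath regulator that is also active in lymphocytes and epidermis, was at 88.3 to 124 CPM in WT and 60.7 to 155 CPM in KO libraries (0.08 ± 0.21, adjusted p = 0.948).

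The hair matrix list holds regulators and early products of the dividing cells at the follicle base. Of its 18 measured members, 8 were called lower (44.4%, against 1.28% of all genes tested). Crym, a thyroid hormone-binding protein, was at 16.9, 23.9, 13.0 and 14.9 CPM in WT and at 4.28, 6.19, 3.57 and 3.44 CPM in KO libraries (-1.96 ± 0.24, adjusted p = 0.000578). S100a3, a calcium-binding protein of the hair cuticle, differed by -2.76 ± 0.37 (adjusted p = 0.00119), and Prr9 by -2.71 ± 0.40 (adjusted p = 0.00265). The transcription factor Hoxc13, which acts on hair keratin genes, differed by less, at 10.2, 10.1, 6.95 and 8.29 CPM in WT and 3.45, 4.70, 4.53 and 4.83 CPM in KO libraries (-1.02 ± 0.18, adjusted p = 0.00633).

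Keratin-associated proteins cross-link the keratin filaments of the shaft. Taken by their symbols, a choice made after their values were seen, 46 of 50 tested Krtap genes were lower (92.0%) and 0 higher by edgeR, with 29 called by DESeq2 and 48 by voom. The median log2 fold change of the 50 was -3.15. Krtap17-1 was at 5.81, 10.04, 4.94 and 5.33 CPM in WT and at 0.972, 1.10, 1.17 and 0.610 CPM in KO libraries (-2.74 ± 0.28, adjusted p = 9.45e-05). Krtap13-1 differed by -3.77 ± 0.57 (adjusted p = 0.00287) and Krtap4-8 by -3.67 ± 0.58 (adjusted p = 0.00378). Krtap genes are a multigene family, and how reads that fit more than 1 near copy were handled is not given. Outside these lists, Fgf5, which ends hair growth, was lower at 0.699 to 1.61 CPM in WT against 0.170 to 0.319 CPM in KO libraries (-2.13 ± 0.39, adjusted p = 0.0102). So was Foxe1, a follicle transcription factor (-2.23 ± 0.37, adjusted p = 0.00515), and both were named after their values were seen.

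**Figure D2:**
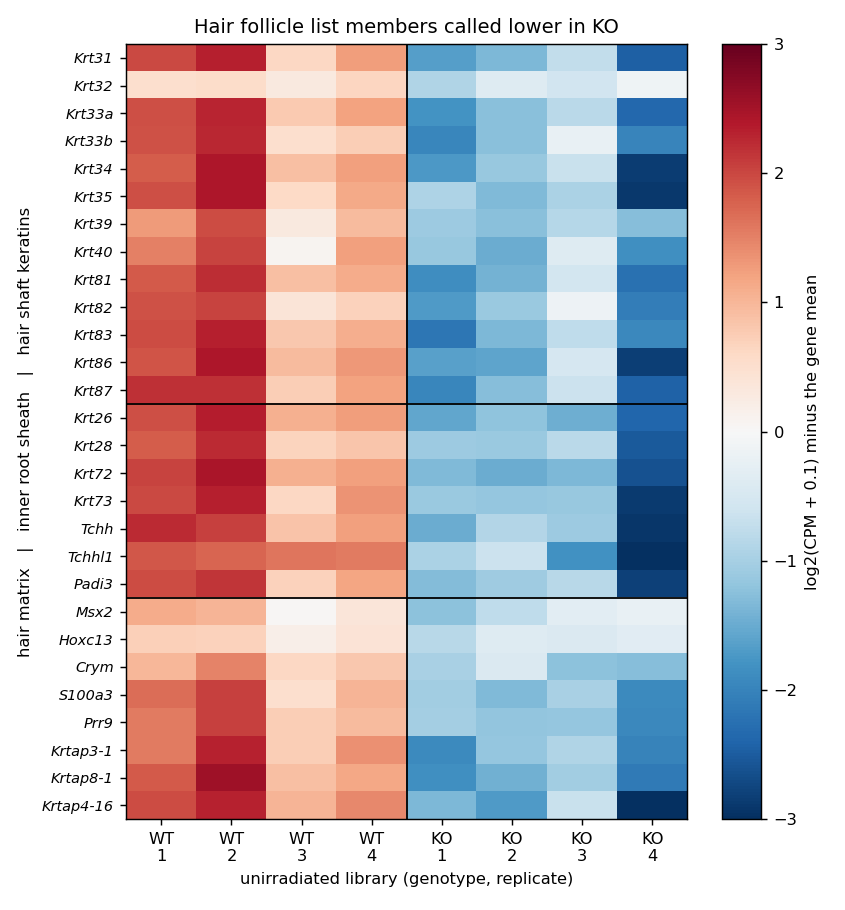
Level of each of the 28 called members of the 3 hair lists (rows) in the 8 unirradiated libraries (columns), as log2(CPM + 0.1) minus the gene's mean over these libraries. All 4 WT libraries are above and all 4 KO libraries below the mean in nearly every row, with WT control 2 highest and KO control 4 lowest in most of them.

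The list of the resting follicle held no edgeR call. Of 18 measured genes of the bulge, where follicle stem cells lie, and of the telogen follicle, edgeR called 0, DESeq2 1 and voom 1, and 2 had an unadjusted p under 0.05. Lgr5, a stem cell marker of the lower bulge, was at 31.1, 17.5, 36.5 and 25.3 CPM in WT and at 16.6, 25.5, 24.7 and 33.3 CPM in KO libraries (-0.15 ± 0.22, adjusted p = 0.897). Proliferation genes were also not called (0 of 28 by edgeR and DESeq2, 1 by voom, with 1 unadjusted p under 0.05), and Mki67 overlapped between the groups at 48.8 to 94.4 CPM in WT and 50.7 to 76.9 CPM in KO libraries.

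The number of called hair list members changed on removal of single libraries, which leaves fewer in a group. From 28 it went to 19, 14, 29 and 26 without WT control 1, 2, 3 and 4. Without KO control 1, 2, 3 and 4 it went to 17, 17, 22 and 13, and none of the called members turned higher. Scores over the 3 lists were 0.947 to 1.46 in WT control and -0.0344 to 0.279 in KO control libraries, and at or under -0.0003 in all UVB libraries. With this score as a covariate, 6 genes were called in place of 297, namely Gm436, Zfp990, Zfp984, Aadacl4, Rab6b and Cry1. The score does not overlap between the unirradiated genotypes. With UVB it was -0.745 to -0.000317 in WT and -0.907 to -0.722 in KO libraries, where the ranges overlap.

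Called genes made up a larger share of the genes around Tnfrsf1b than of the others. Within 10 Mb of Tnfrsf1b, by the order of genes on an annotation of another build, 28 of 236 tested genes were called (11.9%), against 1.56% of the other 17295. Of these, 11 were higher and 17 lower, and within 30 tested genes on either side 18 of 61 were called, Tnfrsf1b included. Around Tnfrsf1a, on chromosome 6, 3 of 232 were called (1.29%), namely Tnfrsf1a, Apold1 and the hair follicle receptor Gprc5d. The differences near Tnfrsf1b went both ways. The genotype cannot be told apart from the stretch of chromosome that a knockout allele was bred with.

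Gm436, a predicted gene 5 tested genes from Tnfrsf1b, was at 1.97, 1.92, 1.75 and 1.75 CPM in WT and at 59.6, 40.6, 47.6 and 58.2 CPM in KO libraries, 27.8-fold higher (log2 4.80 ± 0.17, adjusted p = 1.72e-10). This was the smallest adjusted p of all genes. Zfp990, a zinc finger gene, had 2 reads over the 4 WT libraries and 396 over the 4 KO libraries. Zfp984, of the same family, was lower, at 16.2, 14.6, 13.6 and 12.3 CPM in WT and at 2.72, 2.59, 2.93 and 2.77 CPM in KO libraries (-2.36 ± 0.16, adjusted p = 7.2e-07). Lower as well were the neighbouring zinc finger genes Zfp991 (-2.45 ± 0.32, adjusted p = 0.000877) and Zfp982 (-4.12 ± 0.59, adjusted p = 0.00204) and the pseudogene Znf41-ps (-2.54 ± 0.34, adjusted p = 0.00114). These genes are close copies of each other, so reads assigned to one may come from another.

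Aadacl4, an arylacetamide deacetylase-like gene, was at 78.4, 82.0, 204 and 153 CPM in WT and at 12.1, 11.6, 12.3 and 11.8 CPM in KO libraries (-3.44 ± 0.32, adjusted p = 3.93e-05). Its KO libraries were within 1 CPM of each other, and WT control 3 was highest. Masp2, a protease of the lectin pathway of complement, was higher in KO, at 0.248 to 0.437 CPM in WT and 1.83 to 2.46 CPM in KO libraries (2.54 ± 0.22, adjusted p = 1.41e-05). Rbp7, a retinol-binding protein, was also higher, at 0.939, 2.48, 1.66 and 1.84 CPM in WT and 11.6, 11.4, 6.34 and 7.38 CPM in KO libraries (2.43 ± 0.35, adjusted p = 0.00222).

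Smaller differences held for widely expressed neighbours. Clcn6, a chloride transporter of endosomes, differed by 0.57 ± 0.10 (adjusted p = 0.00515), while Miip differed by -0.99 ± 0.17 (adjusted p = 0.00709) and the ubiquitin ligase subunit Fbxo44 by -1.54 ± 0.21 (adjusted p = 0.00119). Padi1 and Padi3, both of the hair-related peptidylarginine deiminases, lie in the same window. Each of the called genes near Tnfrsf1b named so far kept its call in every alternative without a covariate that tested it.

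**Figure D3:**
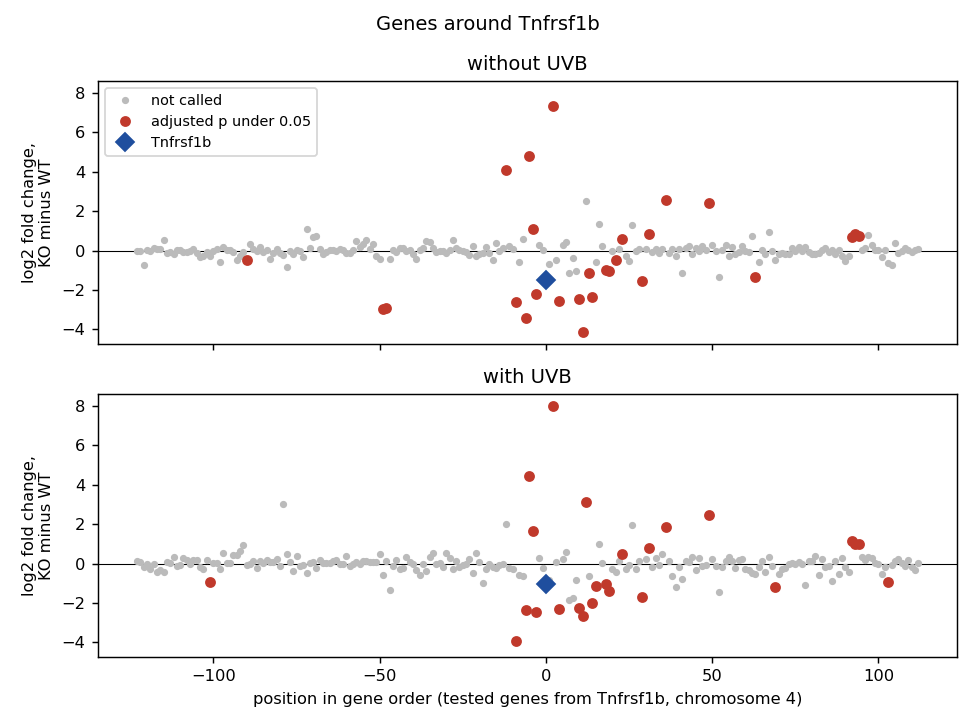
Log2 fold change of KO minus WT (vertical axis) of tested genes by their place in the gene order around Tnfrsf1b on chromosome 4 (horizontal axis, in tested genes), without UVB above and with UVB below, with called genes in red and Tnfrsf1b as a diamond. Called genes gather within about 30 tested genes of Tnfrsf1b in both panels, on both sides of the zero line, and the highest point, Zfp990, has a fitted value against only 2 WT reads.

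The same neighbours differed in the UVB libraries, which are other libraries of the same genotypes. With UVB, 26 of the 236 genes near Tnfrsf1b were called (11%), against 0.856% of all genes (150 of 17531), and 21 of the 28 unirradiated calls were among them, all in the same direction. Gm436 differed by 4.42 with UVB (adjusted p = 2.68e-10), Zfp984 by -1.99 (adjusted p = 5.43e-06) and Aadacl4 by -2.34 (adjusted p = 0.000886). Over all genes, 44 were called in both conditions, which is 14.8% of the calls without and 29.3% of the calls with UVB, and 43 of them had the same direction (0.245% of genes tested).

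Other genes called in both conditions lay on several chromosomes, and those named here were chosen after their values were seen, apart from Rab6b and Eno1b. Rab6b, a small GTPase of Golgi traffic on chromosome 9, was at 34.9, 33.8, 36.6 and 33.9 CPM in WT and at 1.94, 1.65, 2.45 and 1.33 CPM in KO libraries (-4.24 ± 0.34, adjusted p = 7.2e-06). The groups were 18.8-fold apart, with WT libraries within 3 CPM of each other. Eno1b, an enolase gene on chromosome 18, had 11 reads over the WT and 1225 over the KO libraries (6.83 ± 0.50, adjusted p = 2.36e-06). It is a near copy of Eno1, which lies on chromosome 4 near Tnfrsf1b, and reads of one may be counted for the other. Eno1 was at 168, 171, 193 and 164 CPM in WT and at 157, 108, 99.4 and 108 CPM in KO libraries and was not called (-0.56 ± 0.15, adjusted p = 0.0912).

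On chromosome 8, the sperm metalloprotease gene Adam3 had 3 reads over the WT and 176 over the KO libraries. The vomeronasal receptor gene Vmn2r96 on chromosome 17 had 5 and 105 reads. Trnp1 (-0.96 ± 0.14, adjusted p = 0.00204) and the nucleosome-binding protein gene Hmgn2 (-0.50 ± 0.08, adjusted p = 0.00354) lie on chromosome 4 beyond 10 Mb from Tnfrsf1b. Cnrip1, which encodes a protein that binds cannabinoid receptor 1, differed by 0.55 ± 0.10 (adjusted p = 0.0099), with WT libraries at 9.09 to 10.9 CPM and KO libraries at 14.2 to 15.9 CPM.

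Calls among the hair genes did not repeat with UVB. There, edgeR called 0 of the 94 hair list and Krtap genes (0.359% of all genes were called lower with UVB), DESeq2 2 and voom 2, and 23 had an unadjusted p under 0.05. Of the 71 that were called without UVB, 69 still had a negative log2 fold change with UVB, and their median was -1.90 with against -3.12 without UVB. Hair transcripts were low in UVB skin of both genotypes. Krt71 was at 0.692, 41.6, 0.339 and 2.44 CPM in WT UVB and at 1.34, 0.742, 3.55 and 0.410 CPM in KO UVB libraries. The interaction, the test of whether the genotype difference itself changes with UVB, was called for 4 genes (0.0228%), namely Pinlyp, Angptl8, Tnik and Hba-a2, and for 0 of the 94 hair list and Krtap genes, of which 13 had an unadjusted p under 0.05 and DESeq2 called 2 and voom 1.

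**Figure D4:**
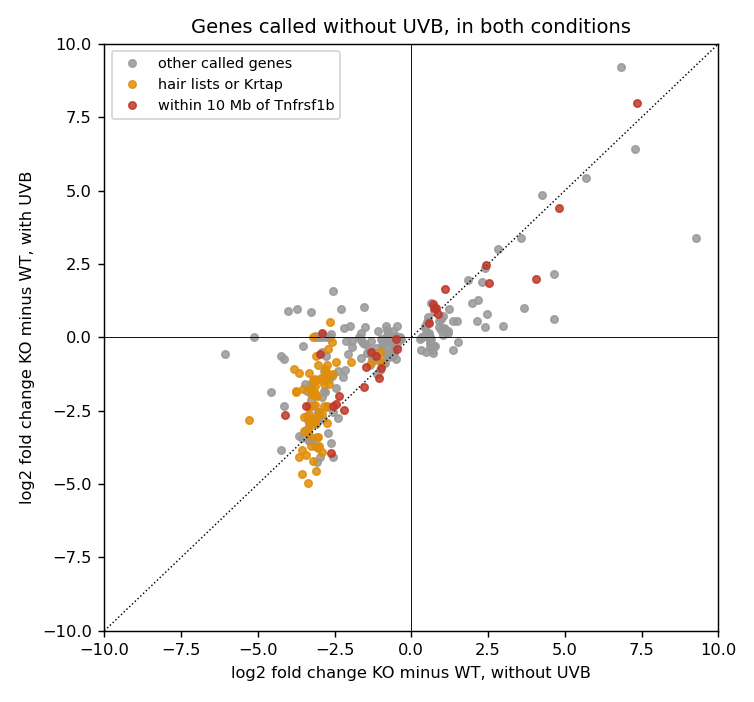
Log2 fold change of KO minus WT without UVB (horizontal axis) and with UVB (vertical axis) for the 297 genes called without UVB, coloured by whether they lie within 10 Mb of Tnfrsf1b, belong to the hair lists or Krtap genes, or neither. Of the genes near Tnfrsf1b, 27 of 28 have the same sign on both axes, some of them far from the dotted line of equal change. Of the hair genes, 69 of 71 lie below zero on both axes, and many of the remaining genes lie close to zero with UVB.

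Genes that glucocorticoid hormones induce in many tissues differed in both directions. Of 14 measured members, 4 were lower and 1 higher (35.7%, against 1.69% of all genes tested). The median log2 fold change over the list was 0.02, and DESeq2 called 7 and voom 5. Fkbp5, a co-chaperone of the glucocorticoid receptor, was at 277, 311, 177 and 298 CPM in WT and at 99.3, 93.9, 84.2 and 65.4 CPM in KO libraries (-1.63 ± 0.19, adjusted p = 0.000411). Zbtb16, which encodes the transcription factor PLZF, was at 164, 163, 124 and 134 CPM in WT and at 60.9, 69.7, 49.7 and 58.1 CPM in KO libraries (-1.30 ± 0.21, adjusted p = 0.00373). In both, every KO library was well below every WT library. Hif3a, a hypoxia-inducible factor subunit, also differed (-1.39 ± 0.25, adjusted p = 0.00709, and 0.051 in a fit of the 2 groups alone).

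The member that was higher was Angptl4, a secreted inhibitor of lipoprotein lipase, at 14.3, 31.0, 21.3 and 22.4 CPM in WT and at 59.0, 71.6, 42.7 and 31.3 CPM in KO libraries. Its log2 fold change was 1.21 ± 0.25 (adjusted p = 0.0201). That call ended without WT control 1, 3 or 4 or KO control 1 or 2 (adjusted p of 0.0532 to 0.0703). The cell cycle inhibitor Cdkn1c was lower (-0.94 ± 0.21, adjusted p = 0.0277), and its call ended in 11 alternatives, with an adjusted p of up to 0.0981. Without WT control 3 it kept the call, and without any other single unirradiated library it did not. Per1 and Cdkn1a, also of this list, were not called, with Cdkn1a at 138 to 168 CPM in WT and 136 to 175 CPM in KO libraries (0.00 ± 0.10, adjusted p = 0.998).

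With UVB the difference in Fkbp5 was -0.04 (adjusted p = 0.939). The interaction for Fkbp5 had an adjusted p of 0.0576, above the threshold, so that a change of its genotype difference with UVB was not called.

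In the circadian clock list, 3 of 19 measured genes were lower (15.8%, against 1.28% of all genes tested) and 0 higher. DESeq2 called 5 and voom 6. The list as a whole did not lean lower, with 12 positive and 7 negative log2 fold changes and a median of 0.12. Cry1, a repressor of the clock, was at 21.01, 25.4, 30.6 and 31.6 CPM in WT and at 10.4, 11.8, 12.1 and 13.6 CPM in KO libraries (-1.18 ± 0.18, adjusted p = 0.00299). Per2, its partner, was at 77.6, 86.6, 68.6 and 77.3 CPM in WT and at 29.6, 51.7, 44.9 and 42.5 CPM in KO libraries (-0.88 ± 0.17, adjusted p = 0.0157). The Per2 call ended without WT control 2 (adjusted p = 0.0547) or KO control 4 (adjusted p = 0.0519).

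Nfil3, a repressor in the output of the clock, was the remaining call (-0.94 ± 0.21, adjusted p = 0.026), and it ended without WT control 2 or 4 or KO control 1, 3 or 4 (adjusted p of 0.0586 to 0.0962). Arntl, which encodes the activator BMAL1, was at 10.95 to 16.8 CPM in WT and 11.9 to 14.9 CPM in KO libraries (-0.01 ± 0.18, adjusted p = 0.998). Dbp, a rhythmic output gene, was at 84.1 to 171 CPM in WT and 157 to 234 CPM in KO libraries (0.59 ± 0.32, adjusted p = 0.559). The sources used here do not give the hour at which skin was taken, and whether it moved with genotype was not tested.

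Immediate early genes respond within minutes to many stimuli, handling of tissue included. Of 22 measured, 1 was higher (4.55%), DESeq2 called 4 and voom 0. Fosb was at 2.06, 2.48, 1.53 and 2.33 CPM in WT and at 10.3, 57.6, 8.84 and 30.6 CPM in KO libraries (3.68 ± 0.65, adjusted p = 0.00797, and 0.0704 by voom). All KO libraries lay above the WT libraries, with a spread of several fold among them. Fos, its relative, was at 5.59 to 12.1 CPM in WT and 20.0 to 61.9 CPM in KO libraries (1.97 ± 0.49, adjusted p = 0.0557) and Egr1 overlapped between the groups (0.67 ± 0.41, adjusted p = 0.629). Apold1, an endothelial early response gene, was higher (1.04 ± 0.17, adjusted p = 0.00445) with KO libraries at 7.72 to 9.79 CPM and WT libraries at 3.58 to 5.27 CPM.

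Angptl8 and Pinlyp were lower in KO without UVB, and both were among the 4 genes whose genotype difference was called as changing with UVB. Angptl8, a secreted protein of fed-state lipid metabolism, was at 3.98, 11.03, 5.59 and 3.58 CPM in WT and at 0.194, 0.848, 0.319 and 0.388 CPM in KO libraries (-3.73 ± 0.44, adjusted p = 0.000411), with 0.97 in UVB skin (interaction adjusted p = 0.0113). Pinlyp, whose product is named as a phospholipase A2 inhibitor, was at 17.3, 20.02, 18.97 and 15.1 CPM in WT and at 3.94, 3.603, 3.62 and 4.44 CPM in KO libraries (-2.19 ± 0.23, adjusted p = 9.59e-05), with 0.33 in UVB skin (interaction adjusted p = 0.00458). Hpgd, which degrades prostaglandins, was higher at 44.6 to 52.8 CPM in KO against 20.2 to 32.1 CPM in WT libraries (0.91 ± 0.13, adjusted p = 0.00228). Tdo2, a tryptophan-degrading enzyme, was higher (2.40 ± 0.48, adjusted p = 0.0157), a call that ended without WT control 1 (adjusted p = 0.0653) or KO control 4 (adjusted p = 0.0513).

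**Figure D5:**
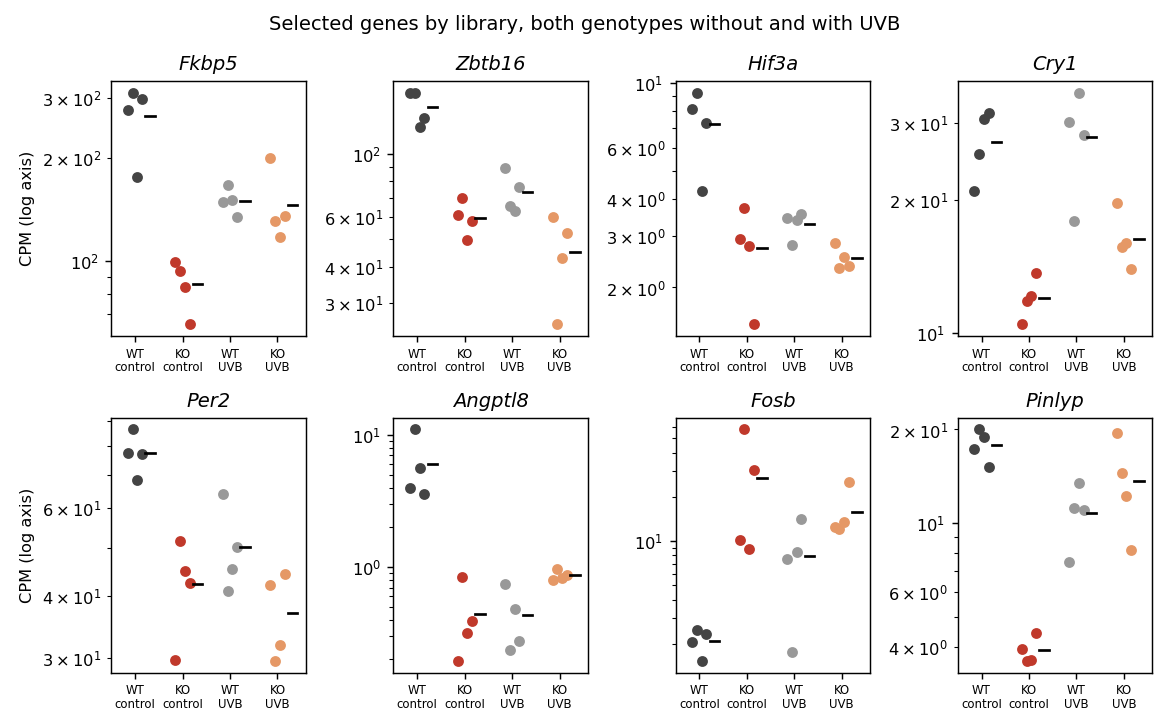
CPM on a log axis of 8 genes in each library of the 4 groups, with the group mean as a bar. Fkbp5, Zbtb16, Hif3a, Cry1, Per2, Angptl8 and Pinlyp are lower and Fosb higher in every KO control than in every WT control library, while the genotypes overlap with UVB for Fkbp5, Hif3a, Cry1, Per2, Fosb and Pinlyp.

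Antibody genes differed among the blood cell lists. In the B and plasma cell list, 3 of 8 measured genes were lower and 1 higher (50%, against 1.69% of all genes tested). DESeq2 and voom also called 4. Igha, the heavy chain of IgA, was at 25.7, 16.2, 14.0 and 29.3 CPM in WT and at 1.02, 4.15, 7.08 and 4.05 CPM in KO libraries (-2.39 ± 0.47, adjusted p = 0.0155). Jchain, which joins IgA units, differed by -2.85 ± 0.59 (adjusted p = 0.0188) and the light chain Igkc by -2.59 ± 0.58 (adjusted p = 0.0315). Ighg1, an IgG heavy chain, was higher, at 0.268 to 1.40 CPM in WT and 2.55 to 5.17 CPM in KO libraries (2.18 ± 0.51, adjusted p = 0.0388).

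Each of these calls ended on removal of some single libraries, which leaves fewer in a group. Over the alternatives without a covariate, the log2 fold change was -2.79 to -2.07 for Igha and -3.13 to -2.48 for Jchain. It was -2.82 to -2.21 for Igkc and 1.88 to 2.56 for Ighg1. Igha lost its call without KO control 2 (adjusted p = 0.0502) or KO control 4 (adjusted p = 0.0535), and Jchain without WT control 1 or 4 or KO control 2 (adjusted p of 0.0556 to 0.0653). Igkc lost it without WT control 1, 2 or 4 or KO control 2, 3 or 4 (adjusted p of 0.0611 to 0.0968). Of the single-library removals, Ighg1 kept its call in 1, that of WT control 3, and its adjusted p reached 0.123.

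Other leukocyte lists held few calls. Flt3, a growth factor receptor of dendritic cell precursors, was the 1 call of 16 dendritic and Langerhans cell genes (6.25%, -0.65 ± 0.13, adjusted p = 0.0157), lost without WT control 1 or KO control 1 or 4 (adjusted p of up to 0.0653). Cd207, the Langerhans cell marker langerin, was at 18.8 to 25.6 CPM in WT and 15.5 to 21.2 CPM in KO libraries (-0.30 ± 0.28, adjusted p = 0.804). Of 25 T and NK cell genes, 20 monocyte and macrophage genes, 12 neutrophil genes and 12 mast cell genes, edgeR called 0, with 7, 0, 0 and 2 at an unadjusted p under 0.05. DESeq2 called 0 of them, and voom called 1, of the mast cell list. Of the 25 T and NK cell genes, 21 had a negative and 4 a positive log2 fold change, with a median of -0.36. Trdc, of dermal and epidermal gamma-delta T cells, was among the positive ones. It was at 8.80 to 14.4 CPM in WT and 12.1 to 18.7 CPM in KO libraries (0.30 ± 0.19, adjusted p = 0.639). No gene of the 27 of the interferon response (0 by DESeq2 and voom, 0 at an unadjusted p under 0.05) was called, and 0 of 22 genes of antigen presentation (0 by DESeq2 and voom, 1 unadjusted). Of the interferon genes, 22 had a positive and 5 a negative log2 fold change, and of the antigen presentation genes 2 and 20. Summed CPM of the antigen presentation genes was 8693 to 11396 in WT and 6724 to 8307 in KO libraries.

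No pigment cell gene was called by edgeR. Of 17 measured melanocyte genes, 15 had a negative log2 fold change, with a median of -0.33 against 0.002 over all genes tested. Over all genes tested, 49.4% had a negative log2 fold change and 10.9% an unadjusted p under 0.05, the latter against 9 of the 17 here. In this list edgeR called 0, DESeq2 1 and voom 2. Their summed CPM was 384 to 410 in WT and 327 to 354 in KO libraries. The master regulator Mitf was at 33.1 to 42.7 CPM in WT and 32.6 to 46.8 CPM in KO libraries (-0.04 ± 0.12, adjusted p = 0.958). Dct, a melanin enzyme that marks melanoblasts, differed by -0.69 ± 0.26 (adjusted p = 0.304) and Tyr, the rate-limiting melanin enzyme, by -1.46 ± 0.46 (adjusted p = 0.167). Kit differed by -0.32 ± 0.11 (adjusted p = 0.253) and Sox10, of melanocytes and Schwann cells, by -0.38 ± 0.14 (adjusted p = 0.301).

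Of 22 signals that other skin cells send to melanocytes, 1 was higher (4.55%). It was Tgfb2, at 35.0, 28.0, 34.5 and 27.1 CPM in WT and 36.5, 50.9, 56.1 and 71.7 CPM in KO libraries (0.79 ± 0.18, adjusted p = 0.0404). The call ended in 12 alternatives, among them the removal of any single library other than KO control 1, and its adjusted p reached 0.135. Kitl, the ligand of Kit, was not called (-0.18 ± 0.10, adjusted p = 0.568).

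The remaining compartments of the skin held few calls. Of 35 lists, 21 held 0 called genes, and over their 415 measured members 47 had an unadjusted p under 0.05, while DESeq2 called 3 and voom 8. Among them were epidermal terminal differentiation (33 genes, 30 with a positive log2 fold change), the basal layer (13), the p53 response (26), skeletal muscle (24), adipocytes (22), sebaceous gland (17), dermal fibroblasts (24), endothelium (15), pericytes (10), heat shock chaperones (13) and mitochondrially encoded genes (7). Acta1, the actin of skeletal muscle, was at 3768 to 5367 CPM in WT and 5179 to 8092 CPM in KO libraries (0.48 ± 0.21, adjusted p = 0.404), with KO control 1 highest.

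Among keratinocyte genes of stress and wounding, 1 of 29 was called (3.45%). Serpinb3b, a protease inhibitor, was at 5.32, 4.53, 7.69 and 23.1 CPM in WT and at 29.3, 33.3, 39.6 and 46.2 CPM in KO libraries (1.85 ± 0.40, adjusted p = 0.0275). Its call ended without WT control 1, 2 or 3 or KO control 2, 3 or 4 (adjusted p of 0.0528 to 0.0931), and it has near copies in its gene cluster. Krt6a, the wound keratin, was not called (-0.06 ± 0.41, adjusted p = 0.986). Single calls came from the Schwann cell list (Cdh19, 1 of 15, 6.67%, -0.63 ± 0.14, adjusted p = 0.0234) and the erythrocyte list (Slc4a1, 1 of 7, 14.3%, -2.88 ± 0.59, adjusted p = 0.0183). Cdh19 lost its call without any of 6 libraries (adjusted p of up to 0.083), keeping it without WT control 3 or KO control 3, and Slc4a1 without any of 5 (up to 0.0669), keeping it without WT control 2 or 4 or KO control 2.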

How the data were processed

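Per the labels' protocols, total RNA of frozen whole dorsal skin was extracted with Trizol, enriched for poly(A) and made into directional NEBNext Ultra II libraries. The deposited values are raw counts of reads per gene, made with STAR on GRCm39 per the submitters' processing notes. The sources used here do not give its version or annotation. The authors' lines for unmapped (10.7 to 19.5%), no-feature (7.77 to 10.2%) and ambiguous (1.18 to 1.35%) reads of the 8 unirradiated libraries stayed out of all totals. Their line for multimapping reads held 0 in these libraries, and how reads that fit several genes were handled is not given. The reverse-strand column was used, as it held 95.68 to 96.09% of stranded reads. A combined table with 17 value columns that carry no sample names was not used.

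Of 55359 gene IDs, 52083 were given symbols from GENCODE M21 (GRCm38), which also gave the gene order. After filterByExpr, 17531 genes were fitted with edgeR 4.0.16 (TMM, robust quasi-likelihood, R 4.3.3) over the 4 groups, with genotype contrasts in each condition and their interaction, and a Benjamini-Hochberg adjusted p under 0.05 was a call. The fit was checked on simulated data. CPM are TMM-normalised and the prior count of log2 CPM is 2. Alternatives were DESeq2 1.42.0, limma 3.58.1 voom, other scalings and filters, unstranded counts, a replicate block, list scores as covariates and the removal of each library.

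Genes were named by a rule. It takes the targets, the 10 higher and 10 lower called genes of largest change and the 10 of smallest adjusted p (mean count of at least 50, no overlap, no predicted-gene symbol), called genes within 10 Mb of a target, the 3 leading called members of each list with 2 or more, and 24 genes always looked up. Others (Krt31, Krt33a, Krt34, Krt40, Krt25, Krt27, Tchh, Lef1, Hoxc13, Fgf5, Foxe1, Hpgd, Fos, Egr1, Per1, Dbp, Arntl, Vcam1, Flt3, Cdh19, Slc4a1, Tgfb2, Tnik, Ighg1, Cdkn1c, Gata3, Eno1 and those of the closing part) were chosen after their values were seen. Some genes that the rule takes are not reported here. The 35 gene lists and the comparison itself were chosen with earlier results of these data known. The labels state no pairing, and the replicate numbers were not used as pairs in the main fit. Same-numbered unirradiated libraries of the genotypes had correlations of -0.24 to 0.40 in their deviations from the group mean. These few values of mixed sign cannot show whether the numbers share a source.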

Additional observations from a re-analysis of the deposited data

Results flagged for a closer look

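Single libraries stood apart from the other 3 of their group in 10 of 258 sets of CPM checked by Dixon's test, and chance flags about 5% of such groups. In WT control, the highest library stood apart for Krtap17-1 at 10.04 CPM, Trnp1 at 12.1, Serpinb3b at 23.1 and Hgsnat at 42.9, and the lowest for Zfp979 at 2.06. In KO control, the lowest library stood apart for Krtap4-9 at 0.0555 CPM and Krt71 at 13.5, and the highest for Tmem177 at 12.2, Mki67 at 76.9 and Lta at 0.832. The genotype difference changed with UVB by the edgeR interaction for 3 genes called without UVB. For Pinlyp it was -2.19 on the log2 scale without and 0.33 with UVB, a difference of differences of 2.53. For Angptl8 it was -3.73 without and 0.97 with UVB, a difference of differences of 4.69. For Tnik, a kinase of the Wnt pathway, the difference of differences was -0.74, with 0.30 ± 0.07 without UVB (edgeR adjusted p = 0.046) and -0.44 with UVB. The Tnik call without UVB ended in a fit of the 2 groups alone (adjusted p = 0.0766). It also ended on removal of any single unirradiated library other than KO control 1 (adjusted p of 0.0683 to 0.184).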

How the results depend on the processing

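No call among the named genes changed direction in any alternative without a covariate. Of 106 named genes called by edgeR, 57 kept the call in every alternative without a covariate and 49 lost it in at least 1. Of those not called, Eno1 gained a call in 4 alternatives, Krt27 and Tgm3 in 3, Fos, Kit, Lef1, Krt25 and Krt71 in 2 and Nfkbia in 1. Without UVB the 297 calls became 452 with DESeq2, 589 with voom, 93 at a mean count of at least 100 and 6 with the hair score as covariate, and 161 to 288 without 1 library. The 28 hair list calls became 17 with no filter on low counts (16 of them among the 28), 0 with the hair covariate and 13 to 29 without 1 library. The 28 calls near Tnfrsf1b became 15 at a mean count of at least 100 (a filter that tests fewer genes), 4 with the hair covariate and 21 to 28 without 1 library. With UVB the 150 calls became 658 with DESeq2, 1117 with voom, 79 in a fit of the 2 groups alone and 59 to 487 without 1 library. The 4 interaction calls became 210 with DESeq2, 459 with voom, 22 without the filter and 2 to 110 without 1 library. The replicate block, whose numbers share no known source, gave 240 calls without UVB, 77 with UVB and 7 for the interaction, with 28 in the hair lists and 24 near Tnfrsf1b. Apart from changes set by the tests' own construction, the cause was not tested. Counts of at most 2 reads per WT control library limit the fold changes of Zfp990, Adam3 and Vmn2r96.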

Other observations

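Some called genes outside the lists, chosen after their values were seen, encode metabolic enzymes and secreted or membrane proteins. Gsta3, a glutathione transferase, was at 34.6, 68.0, 38.5 and 76.3 CPM in WT control and at 13.3, 14.3, 12.7 and 11.3 CPM in KO control libraries (-2.07 ± 0.32, adjusted p = 0.00345), and it kept its call in every alternative without a covariate. The groups did not overlap. Fmo2, a flavin monooxygenase, was lower at 50.03 to 58.5 CPM in KO against 93.4 to 144 CPM in WT libraries (-1.13 ± 0.23, adjusted p = 0.0188), and its call ended without WT control 2 or 4 or KO control 1, 2 or 4 (adjusted p of up to 0.0652). Cxcl9, a chemokine induced by interferon gamma, was at 40.6, 10.7, 23.9 and 30.2 CPM in WT and at 6.42, 5.001, 4.21 and 3.605 CPM in KO libraries (-2.45 ± 0.59, adjusted p = 0.048). Its call was kept without WT control 2 and ended without any other single unirradiated library, with an adjusted p of 0.0798 to 0.1499.

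Defb8, a defensin gene, had 0 reads over the 4 WT control libraries and 298 over the 4 KO control libraries, with 8.17, 0.381, 5.54 and 0.943 CPM in the latter. With UVB it had 2 reads in WT and 26 in KO libraries. Dsg4, the desmosomal cadherin of the hair shaft, was at 2.67 to 8.06 CPM in WT and 0.388 to 1.23 CPM in KO control libraries (-2.67 ± 0.54, adjusted p = 0.0167), a call that ended without WT control 1 or 2 or KO control 1 or 4 (adjusted p of up to 0.0641).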
